A study of Macaca fascicularis with 64 samples.

Results

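The module described here holds the genes of glycolysis, the tricarboxylic acid (TCA) cycle and the shuttles that carry pyruvate, citrate, malate and reducing equivalents across the mitochondrial membrane. Of the 46 listed genes, 38 had a row under their symbol among the 21041 macaque genes counted, and these 38 are the members described. GPI, PFKP, ALDOA, TPI1, PKM, PDHA1, IDH3A and SUCLG2 were not analysed here, and 5046 rows of the count tables name a gene only by an Ensembl identifier. The members were followed in α-, β-, δ- and PP-cells of pancreatic islets and compared between young and old animals.

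Pancreatic endocrine cells read the blood glucose level through the fuel they burn. Glycolysis breaks glucose down to pyruvate in the cytosol, the mitochondrial pyruvate carrier (MPC) takes pyruvate into the mitochondrion, and the pyruvate dehydrogenase complex turns it into acetyl-CoA for the TCA cycle, unless pyruvate dehydrogenase kinases (PDKs) have switched the complex off. In β-cells the ATP made in this way closes potassium channels and starts insulin release, and citrate and malate that leave the mitochondrion are metabolized in the cytosol by ATP citrate lyase and malic enzyme, which yield acetyl-CoA and NADPH.

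The cells came from healthy, untreated cynomolgus monkeys (Macaca fascicularis). There were 8 young animals (4 female, 4 male) and 8 old ones (4 female, 4 male), and each gave 4 libraries. Islets were freed with collagenase from the part of the pancreas near the tail, with 1 monkey per collection day, and single cells were picked by mouth pipette, so differences between monkeys and between days cannot be told apart. The values are counts of unique molecular identifiers (UMIs), in which each tagged RNA molecule counts once whatever its length. The 5908 cells used, of 6141 barcodes, passed minimums of 800 genes and 10000 UMIs, and the filter of the study on the rate of mapped reads was not used here.

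Each cell was typed by the highest of GCG, INS, SST and PPY, the genes of glucagon, insulin, somatostatin and pancreatic polypeptide. This gave 4503 α-cells (178 to 362 per monkey), 1219 β-cells (11 to 194 per monkey), 112 δ-cells and 74 PP-cells. The cells of 1 type and 1 monkey were added up into a single profile where there were 5 or more. That left 16 profiles of α-cells, 16 of β-cells, 11 of δ-cells (7 young, 4 old) and 6 of PP-cells (2 young, 4 old), and old female 2 gave 33 of the 74 PP-cells. A profile held 14089079 to 27439498 UMIs in α-cells, 622124 to 19086370 in β-cells, 206257 to 706643 in δ-cells and 208618 to 1498899 in PP-cells. Levels are given as CPM, the UMIs of a gene per 1000000 UMIs of macaque genes in such a profile, so a lower level can be less RNA per cell or a larger share of other RNA.

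The types were checked against marker lists. The summed level of the β-cell marker list ran from 50694 to 93062 CPM in β-cells and from 2070 to 14173 in α-cells. Most of it was INS, which set the type, so the sum is no check. In β- and α-cells IAPP had medians of 2525 and 45.6, SLC2A2 of 706 and 6.22 and NKX6-1 of 199 and 52.4. MAFA had medians of 119 and 4.58 and PDX1 of 7.83 and 0.185, while ADCYAP1 was at 0 and 0.0837. IRX2, an α-cell transcription factor, had a median of 478 in α-cells and 36.1 in β-cells. In δ-cells SST, which set the type, and HHEX, RBP4, LEPR and GHSR were each above 0 in 11 of 11 monkeys. HHEX had a median of 357 beside 0.704 in α-cells. PP-cells rested on PPY, which set the type, and ETV1 (median 174 beside 39.5 in α-cells and 101 in δ-cells). ETV1 ran from 80.7 to 374 in PP-cells and from 2.13 to 309 in δ-cells, so these ranges overlapped. SLC6A4 and AQP3 had a median of 0 in PP-cells. MEIS2 was at 188 beside 173 in β-cells and 305 in δ-cells, and TM4SF4, an α-cell marker, was at 1889 in PP-cells. GCG RNA was counted in every type: its median level was 75335 in α-cells, 21060 in β-cells, 24363 in δ-cells and 32417 in PP-cells. A second hormone reached at least 0.25 of the first in 6.64% of α-cells, 68.5% of β-cells, 64.3% of δ-cells and 89.2% of PP-cells. The libraries drew on the same 96 cell barcodes, of which 93 occurred in all 64 libraries, so the barcode names a cell only together with its library, and no such cell name occurred in more than 1 library.

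Summed over the 38 members, the module took much the same share of the RNA in α- and β-cells. Its total was 5944 ± 423 CPM in α-cells (SD, n = 16), 5950 ± 840 in β-cells (SD, n = 16), 4717 ± 511 in δ-cells (SD, n = 11) and 4736 ± 556 in PP-cells (SD, n = 6). The 12 members grouped under the TCA cycle, cytosolic IDH1 and MDH1 among them, summed to 1320 ± 83.5 in α-cells and 1363 ± 126 in β-cells (SD, n = 16 each). The 4 PDKs summed to 612 ± 240 in α-cells and 143 ± 30.6 in β-cells (SD, n = 16 each). The 5 members grouped under citrate and malate export summed to 669 ± 129 and 1293 ± 520 (SD, n = 16 each). This group holds SLC25A1, ACLY, ME1 and also the mitochondrial malic enzymes ME2 and ME3. PDK4 and ACLY held most of the kinase and export-group sums, which carry no test, and 2 of the 4 kinases and 2 of the 5 members of the export group passed singly.

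Between β- and α-cells, 28 of the 38 members did not pass the test, and the 10 that did were spread over 6 of the 7 roles, all but the pyruvate dehydrogenase complex. β-cells had lower PDK4, PDK3, OGDH, MPC2 and GAPDH and higher ME1, ACLY, IDH1, GPD2 and ENO1. In edgeR's quasi-likelihood test with the monkey as a block, adjusted by Benjamini-Hochberg over all 12899 genes tested, 10 of the 38 members passed an adjusted p of 0.05, 5 higher and 5 lower. Those 10 are 26.3% of the members, beside 25.0% of all genes called in the same fit (8.92% higher and 16.1% lower). The count of members was thus close to that of genes in general. The median log2 fold change (β over α) was 0.06 over the members and -0.10 over all genes tested. In a fit without the cells that held a second hormone, 11 members passed, 3 higher and 8 lower, beside 3512 of 14583 genes.

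**Figure D1:**
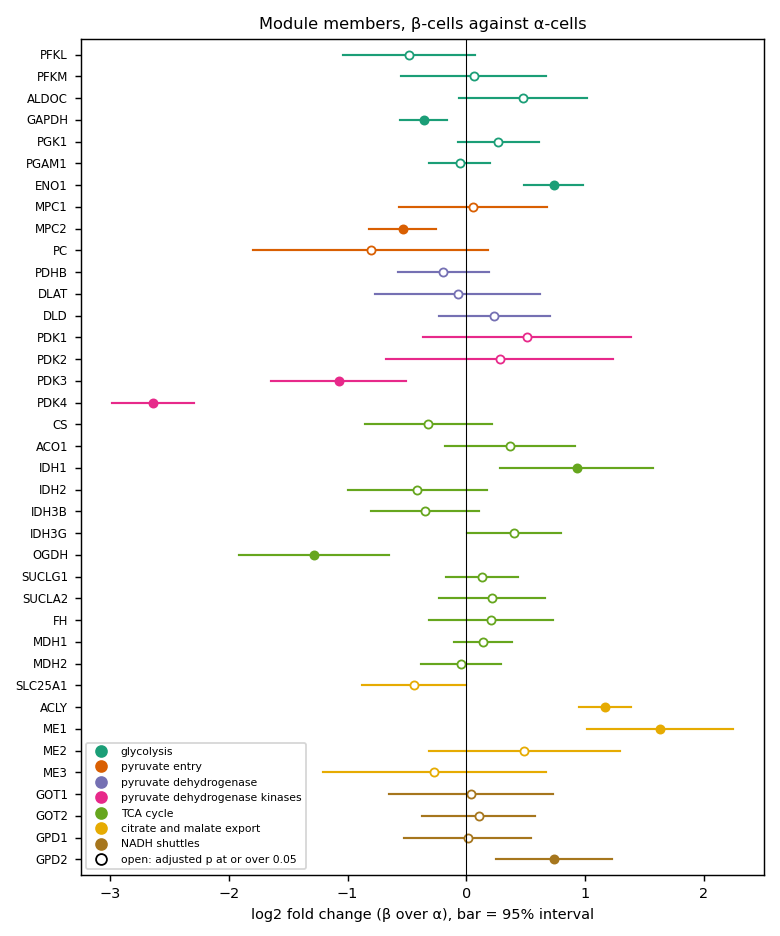
The log2 fold change of β-cells over α-cells for the 38 members, grouped by role from glycolysis at the top to the NADH shuttles at the bottom. Bars are approximate 95% intervals computed from the edgeR test. Filled circles mark the 10 members that passed an adjusted p of 0.05, from PDK4 at -2.64 to ME1 at 1.63, and open circles the others.

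PDK4 is the kinase that turns the pyruvate dehydrogenase complex off in fasting and when fat is burned. Its level in α-cells ran from 153 (old female 1) through a median of 397 to 903 CPM (young male 2), and in β-cells from 32.1 (young female 2) through 74.2 to 139 (old female 2). The lowest α-cell value lay above the highest β-cell value, the single member for which the ranges of the 16 monkeys did not overlap. The mean level was 6.44 times higher in α-cells, the level was higher in α-cells of 16 of 16 monkeys and of 61 of the 62 libraries with at least 3 cells of each type, and the log2 fold change was -2.64 ± 0.17 (SE, edgeR adjusted p = 4.21e-18).

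PDK3, a second kinase of the complex, ran from 46.8 through a median of 91.9 to 136 CPM in α-cells and from 10.6 through 47.4 to 75.4 in β-cells. It was lower in β-cells of 16 of 16 monkeys, although the ranges overlapped, with a log2 fold change of -1.08 ± 0.28 (SE, edgeR adjusted p = 0.00272). PDK1 and PDK2, the other kinases, were rare. PDK1 had a median of 6.95 CPM in α-cells and 11 in β-cells and PDK2 of 6.42 and 9.72, and neither difference passed (log2 fold changes 0.51 and 0.28, adjusted p = 0.438 and 0.727 in edgeR).

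The make-up of the kinase family differed with them. PDK4 supplied a median of 79.1% of the 4 kinases' UMIs in α-cells (60.1% to 93.0% over monkeys) and 51.6% in β-cells (28.2% to 78.1%), with a lower share in β-cells of 16 of 16 monkeys. The share of PDK3 was 17.1% in α-cells and 30.2% in β-cells. The shares follow from the same counts as the fold changes and are given as a description.

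The 3 members of the complex that these kinases act on showed no such difference. PDHA1, a further gene of the complex, was not analysed here. PDHB, a subunit of its first enzyme, had a median of 140 CPM in α-cells and 124 in β-cells, DLAT, its acetyltransferase, 22.7 and 19.5, and DLD, its dihydrolipoamide dehydrogenase, 55.8 and 65.1. None of these 3 passed the test. Their log2 fold changes were -0.19 (95% interval -0.58 to 0.19), -0.07 (-0.77 to 0.62) and 0.24 (-0.23 to 0.70), so changes of the size of PDK3 lie outside the intervals.

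MPC2, 1 of the pair of proteins that form the pyruvate carrier, was lower in β-cells of 16 of 16 monkeys. It ran from 274 through 359 to 424 CPM in α-cells and from 187 through 236 to 319 in β-cells, a log2 fold change of -0.54 ± 0.14 (SE, edgeR adjusted p = 0.00292). Its partner MPC1 was counted far less often, with medians of 12.4 in α-cells and 13.7 in β-cells, and did not pass (log2 fold change 0.06, 95% interval -0.57 to 0.68). PC, which carboxylates pyruvate to oxaloacetate, was among the rarest members, at 1.65 to 6.54 CPM in α-cells and 0 to 7.27 in β-cells (log2 fold change -0.81, adjusted p = 0.252).

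Among the genes of citrate and malate export, ACLY, which splits citrate to acetyl-CoA in the cytosol, ran from 246 (young female 3) through 436 to 757 CPM (old female 1) in α-cells and from 446 through 916 to 2420 in β-cells. The same monkeys were lowest and highest in both types, and ACLY was higher in β-cells of 16 of 16 monkeys and of 61 of 62 libraries (2.33 times the mean level, log2 fold change 1.17 ± 0.11 SE, edgeR adjusted p = 1.95e-12). ME1, the cytosolic malic enzyme that makes NADPH, ran from 18.5 through 28 to 40.2 in α-cells and from 36.2 through 85.0 to 168 in β-cells. It was higher in β-cells of 16 of 16 monkeys, with 3.24 times the mean level (log2 fold change 1.63 ± 0.31 SE, edgeR adjusted p = 3.34e-05), the largest rise among the members.

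The mitochondrial malic enzymes did not pass the test. ME2 had medians of 9.97 in α-cells and 14.1 in β-cells, and ME3 of 8.30 and 7.14 (log2 fold changes 0.49 and -0.27, adjusted p = 0.419 and 0.729 in edgeR). ME1 made up a median of 58.5% of the malic enzyme UMIs in α-cells and 75.9% in β-cells. SLC25A1, the carrier that lets citrate out of the mitochondrion, had medians of 166 in α-cells and 121 in β-cells, with a log2 fold change of -0.44 (adjusted p = 0.146), opposite in sign to that of ACLY.

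**Figure D2:**
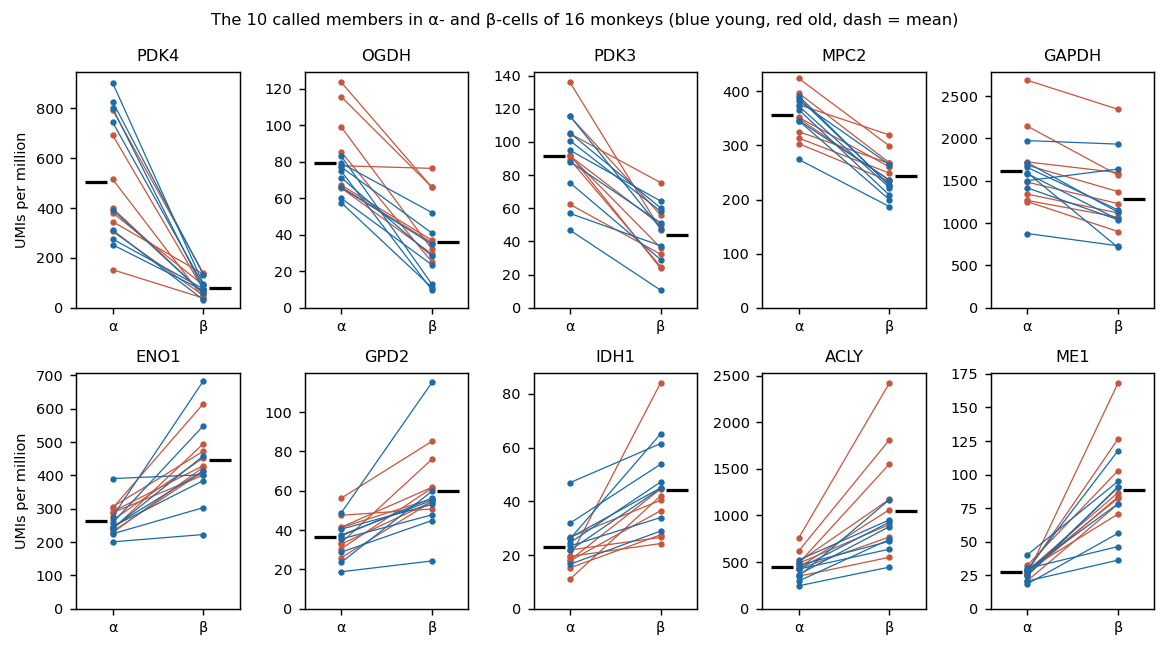
Levels of the 10 members that passed the test, in CPM on axes that start at 0, with 1 line per monkey from its α-cells to its β-cells (blue young, red old) and a black dash at each mean. The 16 lines of PDK4, OGDH, PDK3 and MPC2 all fall and those of ENO1, GPD2, IDH1, ACLY and ME1 all rise, while 15 of 16 fall for GAPDH.

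In the TCA-cycle group, which also holds cytosolic enzymes such as IDH1 and MDH1, 2 of the 12 members passed. OGDH, a subunit of the 2-oxoglutarate dehydrogenase complex, ran from 57.6 through 76.0 to 124 CPM in α-cells and from 9.64 through 33.4 to 76.4 in β-cells, lower in β-cells of 16 of 16 monkeys (log2 fold change -1.28 ± 0.31 SE, edgeR adjusted p = 0.00133). IDH1, the isocitrate dehydrogenase of the cytosol, ran from 11 through 21.8 to 46.9 in α-cells and from 24.3 through 43.3 to 84.1 in β-cells, higher in β-cells of 16 of 16 monkeys (log2 fold change 0.93 ± 0.32 SE, edgeR adjusted p = 0.0259). That call was lost in 4 of 28 alternatives: without old male 4, whose β-cells had the highest value (adjusted p = 0.05), without cells holding a second hormone (log2 fold change 0.34, adjusted p = 0.641), without the 5% of cells with the most UMIs, and without those above the median of a list of dissociation stress genes (0.82, adjusted p = 0.0571).

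IDH2, the mitochondrial enzyme with the same cofactor, had medians of 64.9 in α-cells and 45.0 in β-cells and did not pass (log2 fold change -0.41, adjusted p = 0.335). As a share of the UMIs of both genes, IDH1 was at a median of 23.5% in α-cells and 47.1% in β-cells and higher in β-cells of 16 of 16 monkeys. Of the 12 TCA-cycle members, 10 did not pass, among them the 4 with the highest levels. MDH1, the cytosolic malate dehydrogenase, had medians of 298 and 327, its mitochondrial counterpart MDH2 of 168 and 162, and SUCLG1, a subunit of succinate-CoA ligase, of 221 and 238. The 95% intervals of their log2 fold changes ran from -0.10 to 0.38, from -0.38 to 0.29 and from -0.17 to 0.44. IDH3G, a subunit of the mitochondrial isocitrate dehydrogenase that uses NAD, had medians of 127 and 179 and was higher in β-cells of 13 of 16 monkeys (log2 fold change 0.40, 95% interval 0.01 to 0.79, adjusted p = 0.138 in edgeR).

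In glycolysis 2 of the 7 members passed, in opposite directions. GAPDH, the glyceraldehyde-phosphate dehydrogenase and the most abundant member, ran from 877 (young male 3) through 1590 to 2687 CPM (old male 1) in α-cells and from 713 through 1142 to 2344 in β-cells, lower in β-cells of 15 of 16 monkeys (log2 fold change -0.36 ± 0.10 SE, edgeR adjusted p = 0.0047). ENO1, the enolase, ran from 201 through 252 to 390 in α-cells and from 223 through 427 to 683 in β-cells, higher in β-cells of 16 of 16 monkeys (log2 fold change 0.73 ± 0.12 SE, edgeR adjusted p = 3.96e-06). The phosphofructokinase genes PFKL and PFKM, both near 40 CPM in α-cells (medians 42.1 and 39.5), did not pass, nor did ALDOC, PGK1 and PGAM1.

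Of the NADH shuttles, GPD2, the mitochondrial glycerol-phosphate dehydrogenase, ran from 18.8 through 36.2 to 56.2 CPM in α-cells and from 24.3 through 55.6 to 115 in β-cells, higher in β-cells of 16 of 16 monkeys (log2 fold change 0.74 ± 0.24 SE, edgeR adjusted p = 0.0189). The call was lost in 4 of 28 alternatives, with adjusted p up to 0.231. GPD1, its cytosolic partner, had medians of 72.1 and 64.6 (log2 fold change 0.01, 95% interval -0.52 to 0.54), and the aspartate aminotransferases GOT1 and GOT2 of the malate-aspartate shuttle also did not pass.

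Immediate-early genes moved with this comparison. Of the dissociation stress list, 6 of 7 genes tested were lower in β-cells, FOS by a log2 fold change of -2.23, and the summed list of 8 genes ran from 1898 through 3664 to 5646 CPM in α-cells and from 820 through 1708 to 2695 in β-cells. An alternative chosen after seeing the data left out the cells above the median of that list in their type and monkey. In it PDK4 stood at -2.77, PDK3 at -1.29, ACLY at 1.11 and ME1 at 1.78, and 8 members passed, beside 3655 of 14896 genes. The cut was made within each type, so it did not match α-cells to β-cells in that list. FOS and the hypoxia genes named here were picked after their values were seen.

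The number of members called depended on which sums shared the fit. When the α- and β-cell sums alone were fitted, an alternative chosen after seeing the data, 19 of 38 members passed, 9 higher and 10 lower, beside 46.9% of all genes. All 10 members called above were among them. The 9 others were ALDOC, PGK1, ACO1 and IDH3G, which were higher (log2 fold changes 0.45, 0.24, 0.35 and 0.38), and PFKL, CS, IDH2, IDH3B and SLC25A1, which were lower (-0.50, -0.34, -0.45, -0.36 and -0.45).

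The steps that flank the module were counted from 4 lists of further pathway genes, of which 55 of 62 had a row and 44 were tested. In β-cells 3 of them were higher and 7 lower than in α-cells, beside 8.92% and 16.1% of all genes, shares close to those of the lists. Among the higher genes were G6PC2, the islet glucose-6-phosphatase, with a log2 fold change of 6.37, and PFKFB2, which sets fructose-2,6-bisphosphate, with 4.12. The largest falls were those of SLC16A7, a monocarboxylate carrier, with -4.15, LDHB, a lactate dehydrogenase subunit, with -3.32, and GPT2, the mitochondrial alanine aminotransferase, with -2.81. None of the 6 genes tested of the pentose phosphate pathway passed. Of a hypoxia list, 3 of 14 genes were higher (VEGFA, BNIP3 and ANKRD37) and 2 lower (P4HA1 and P4HA2).

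**Figure D3:**
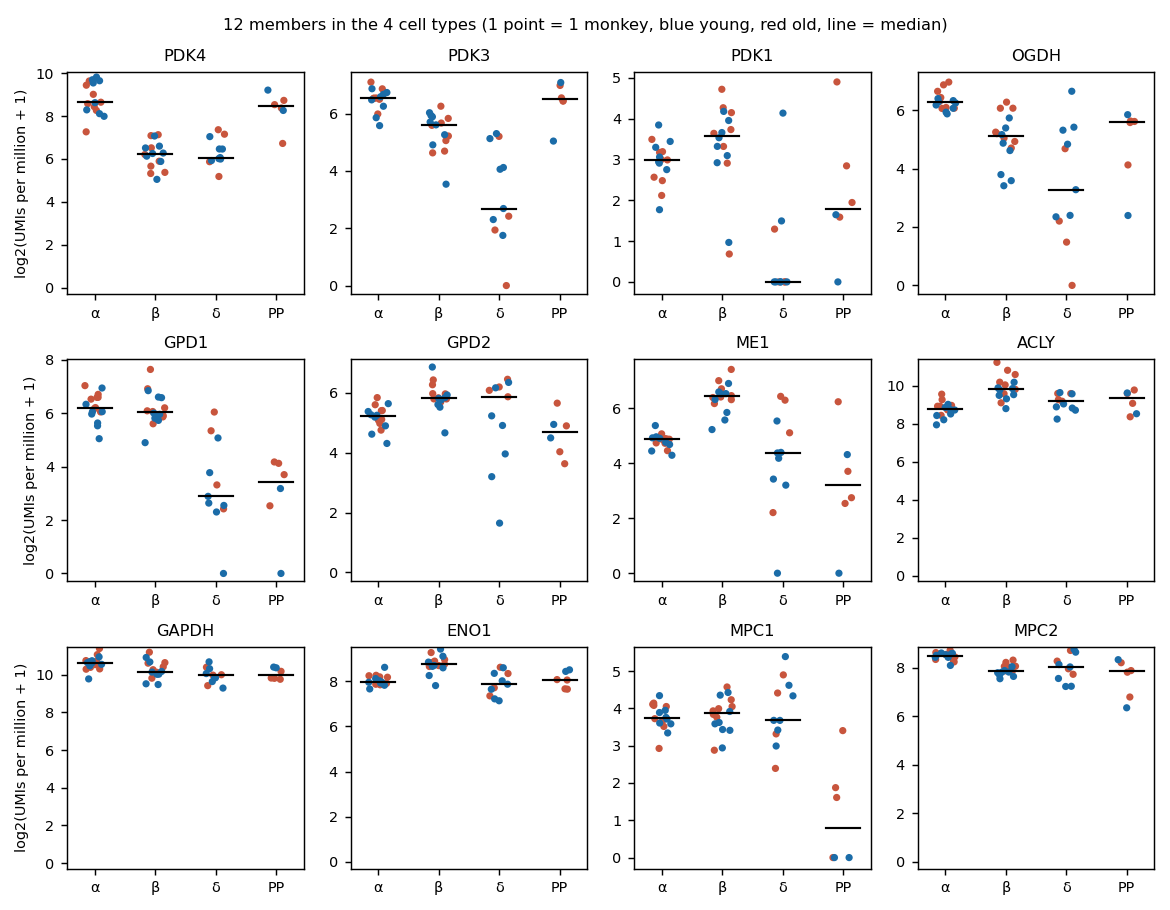
Levels of 12 members in the 4 cell types as log2(CPM + 1), with 1 point per monkey (blue young, red old) and a line at the median of 16, 16, 11 and 6 monkeys. PDK4 and PDK3 are high in α- and PP-cells, GPD1 is low in δ- and PP-cells, and MPC1 is low in PP-cells.

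δ-cells were compared with the average of α- and β-cells in the same fit. They had lower levels of 12 of the 38 members and a higher level of none, beside 19.4% of all genes called (15.2% lower, 4.16% higher). The whole distribution was shifted in these small sums: the median log2 fold change of all genes was -0.40, and that of the members -0.44. With DESeq2's scaling those medians were -0.11 and -0.23, and 9 members passed, all lower, beside 2634 of 12899 genes. For 8 of the 12 the 95% interval lay below the median of all genes, namely PDK1, PDK3, PDK4, GPD1, ME1, ME3, OGDH and IDH2. For GAPDH (-0.45), PGAM1 (-0.42), ENO1 (-0.55) and DLD (-0.80) it included that median.

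GPD1, the cytosolic glycerol-phosphate dehydrogenase, was the member with the steadiest difference in δ-cells. It ran from 0 (young male 2) through a median of 6.40 to 65.1 CPM (old female 1) over 11 monkeys, while the means in α- and β-cells of the same monkeys were 71.5 and 67.9. It was below their average in 11 of 11 monkeys, with a log2 fold change of -2.49 ± 0.36 (SE, edgeR adjusted p = 7.07e-07), and passed in 27 of 27 alternatives. GPD2 did not pass (log2 fold change -0.08, adjusted p = 0.881), so that GPD1 supplied a median of 25% of the UMIs of the 2 genes in δ-cells and 69.5% in α-cells.

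Of the 4 kinases of pyruvate dehydrogenase, PDK4, PDK3 and PDK1 passed in δ-cells and PDK2 did not. PDK4 ran from 35.4 through 66.1 to 164 CPM, near the β-cell level and below that of α-cells, with means in the same monkeys of 87.0 in δ-cells, 555 in α-cells and 79.3 in β-cells (log2 fold change against their average -1.32 ± 0.19 SE, edgeR adjusted p = 5.21e-07). The PDK4 call was lost in 1 of 27 alternatives, the one without cells holding a second hormone (edgeR adjusted p = 0.0969). PDK3 ran from 0 through 5.44 to 38.4, below both (means 14.5 in δ-cells, 84.3 in α-cells and 41.3 in β-cells, log2 fold change -2.25 ± 0.38 SE, edgeR adjusted p = 1.61e-05). PDK1 was counted in 3 of 11 monkeys, with 9 UMIs in all, and 7 of these came from young male 2 (log2 fold change -2.74, edgeR adjusted p = 0.00434). Its call was lost in 3 of 27 alternatives, with a log2 fold change of -0.03 (adjusted p = 1) without cells holding a second hormone. PDK2 had a mean of 8.51 in δ-cells and 8.46 over α- and β-cells of the same monkeys (adjusted p = 0.304 in edgeR).

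OGDH in δ-cells ran from 0 through 8.69 to 99.2 CPM, with the highest value in young male 2 (log2 fold change -1.69 ± 0.41 SE, edgeR adjusted p = 0.00214). The means were 23.1 in δ-cells, 78.7 in α-cells and 29.5 in β-cells of the same monkeys, and the call was lost in 3 of 27 alternatives, with a log2 fold change of -0.15 (adjusted p = 0.936) without cells holding a second hormone. ME1, with a mean of 29.0, stood at the α-cell level of the same monkeys (27.6) and below their β-cells (92.5), and its difference from the average of both was -1.19 ± 0.37 (SE, edgeR adjusted p = 0.0182), a call that was lost without old male 2. IDH2 had a log2 fold change of -1.35 (edgeR adjusted p = 0.00586). Its call was lost in 3 of 27 alternatives, among them the one without cells holding a second hormone, with edgeR adjusted p up to 0.299. The calls of GAPDH and ENO1 were each lost in 2 of 27. ME3, which was at 0 in 7 of 11 monkeys, had a log2 fold change of -2.06 (edgeR adjusted p = 0.0318), and the ME3 call was lost without any of 8 single monkeys. The PGAM1 call was lost without old female 1, old male 2 or young male 3, and that of DLD without old female 1, old female 2, young female 2, young female 3 or young male 1. Without the cells that held a second hormone, 6 members passed, beside 1132 of 14583 genes. With at least 10 cells per monkey and type, 7 passed, beside 2110 of 16026 genes. Without cells above the median of the dissociation stress list, an alternative chosen after seeing the data, 9 members passed, beside 1662 of 14896 genes. Only GPD1, PDK4, GAPDH and IDH2 of the 12 were among them. The other 8 lost the call, among them PDK3 (log2 fold change -0.98, adjusted p = 0.276 in edgeR), PDK1 (-0.75, adjusted p = 0.616) and DLD (-0.17, adjusted p = 0.839). This alternative and the one with at least 10 cells kept the δ-cell profiles of the same monkeys. These were old female 2, old male 4, young females 1 and 3 and young males 2 and 3. The loss of the other monkeys and that of the stress-list cells cannot be told apart here. The 6 acinar markers in the tables, as a list, summed to 68.4 to 1116 CPM in δ-cells and had a median of 2.95 in α-cells, which came almost wholly from CPB1, the carboxypeptidase B gene (median 344), with the other 5 at a median of 0. Their part in the result was not tested.

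PP-cells were compared in the same way, and 9 of the 38 members passed, 1 higher and 8 lower, beside 10.8% of all genes (3.33% higher, 7.47% lower). Here too the median over all genes lay below 0, at -0.37, with -0.54 over the members. With DESeq2 these were -0.06 and -0.30, and it called 1 member higher and 6 lower, beside 1873 of 12899 genes. PDK4 was the higher one: it stood at 105 (old female 1), 306 (young male 4), 331 (old male 2), 370 (old female 2), 424 (old male 4) and 592 CPM (young male 1). The means in the same monkeys were 355 in PP-cells, 474 in α-cells and 78.2 in β-cells, and the log2 fold change against the average of both was 0.85 ± 0.22 (SE, edgeR adjusted p = 0.00903). In 5 of the 6 monkeys the PP-cell level was within the range of the α-cells (153 to 903), and that of old female 1 was below it and within the range of the β-cells. The call was lost in 4 of 26 alternatives.

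MPC1 was nearly missing from PP-cells. It was at 0 in old male 4, young male 1 and young male 4 and at 2.06, 2.67 and 9.59 CPM in old female 1, old female 2 and old male 2, which rests on 7 UMIs in all. Its mean in α- and β-cells of these monkeys was 13.1 and 13.8, and the log2 fold change was -2.60 ± 0.63 (SE, edgeR adjusted p = 0.0052). MPC2, the partner, was at a median of 231 and did not pass (log2 fold change -0.51, adjusted p = 0.105).

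PC had 0 UMIs among 3387350 in PP-cells of 6 monkeys. A count of 0 allows up to 3 counts over the group, or 0.886 CPM, and the average of α- and β-cells in these monkeys was 3.67, so PC was at least 4.15-fold lower, as far as counting error goes. The call was lost without old female 2, the monkey with the most PP-cells, and with DESeq2. Of the 4 shuttle genes GPD1, GOT1 and GPD2 passed in PP-cells and GOT2 did not (log2 fold change -0.80, adjusted p = 0.155 in edgeR, lower in 4 of 6 monkeys). GPD1 ran from 0 to 17.1 (log2 fold change -3.03 ± 0.50 SE, edgeR adjusted p = 2.79e-05) and GOT1 from 0 to 17 (-2.33 ± 0.62 SE, edgeR adjusted p = 0.0108). GPD2 (-1.13) and GAPDH (-0.45) were near the threshold and were lost in 24 and 16 of 26 alternatives, among them 15 and 10 of the 16 that left out 1 monkey. ME1 stood at -2.13 (adjusted p = 0.00689, means 19.2 CPM in PP-cells, 28 in α-cells and 109 in β-cells) and PGAM1 at -0.86 (adjusted p = 0.00181).

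The PP-cell calls rest on few cells. Old female 2 had 33 PP-cells, and the other monkeys with a profile had 5 to 8. With at least 10 cells per monkey and type, the profile of old female 2 alone was left. The same held without cells above the median of the dissociation stress list in their monkey. These 2 alternatives therefore cannot show whether a PP-cell call holds over monkeys. The dissociation stress list was higher in PP-cells, with 5 of 7 genes called and a sum of 3435 to 7521 CPM, and its part in the result was not tested.

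**Figure D4:**
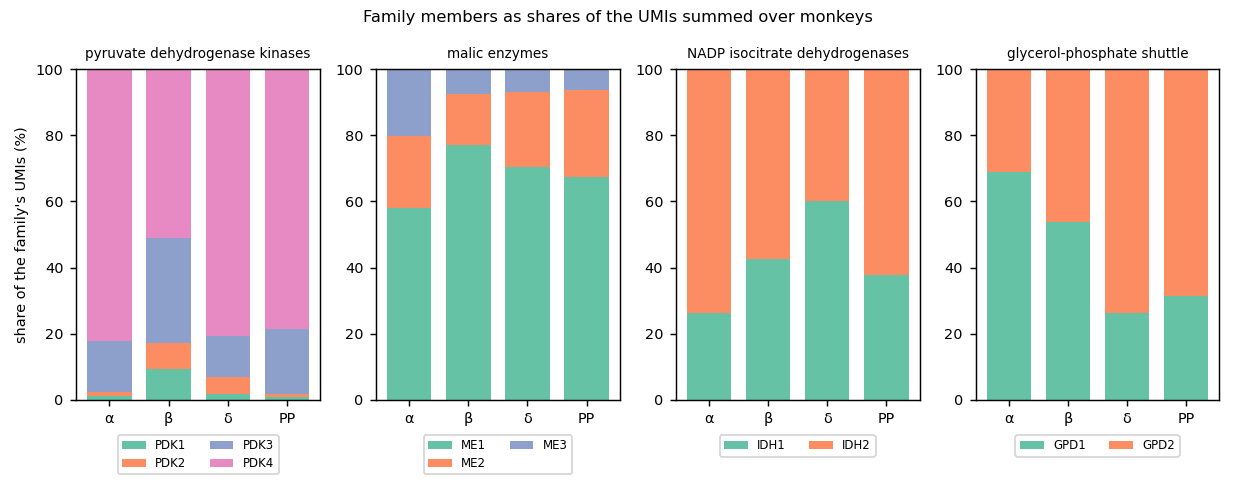
Shares of the UMIs of 4 small families, in percent, summed over the monkeys of each cell type. PDK4 takes the largest share of the kinases in all 4 types and its smallest in β-cells, IDH1 and ME1 take a larger share in β- than in α-cells, and GPD1 takes a smaller share than GPD2 in δ- and PP-cells.

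No member passed the test of age in α-, β- or δ-cells. In α-cells 0 of 38 members passed the test of old against young monkeys, beside 0% of 12916 genes (edgeR, with sex in the model). DESeq2 also called 0 members, and 23 of all genes. At an unadjusted p under 0.05 there were 6 members in edgeR and 5 in DESeq2, and 886 of all genes in edgeR. The log2 fold changes of the members ran from -0.53 to 0.47.

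The 6 members were IDH1, ACLY, PFKM, GPD1, PDK2 and IDH3B. IDH1 ran from 16.6 through 25.3 to 46.9 CPM in young α-cells and from 11 through 18.6 to 26.6 in old ones (log2 fold change -0.53, 95% interval -0.95 to -0.12, adjusted p = 0.695 in edgeR). ACLY ran from 246 through 395 to 521 and from 349 through 487 to 757 (log2 fold change 0.36, 95% interval 0.05 to 0.68, adjusted p = 0.705 in edgeR). The groups overlapped in both. PFKM stood at 0.34, GPD1 at 0.47, PDK2 at -0.50 and IDH3B at -0.25, with adjusted p from 0.705 to 0.721.

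PDK4, the member that differed most between the types, ran from 253 through 570 to 903 CPM in young α-cells and from 153 through 391 to 795 in old ones. The spread within each age group was larger than the distance between them (log2 fold change -0.30, 95% interval -1.01 to 0.40, adjusted p = 0.89 in edgeR). In β-cells PDK4 had medians of 76.0 in young and 65.8 in old monkeys.

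In β-cells 0 of 38 members passed, beside 0.0470% of 10628 genes, with 3 members at an unadjusted p under 0.05 in edgeR and 3 in DESeq2, which called 0 members and 39 of all genes. SLC25A1, the citrate carrier, ran from 114 through 152 to 344 CPM in young β-cells and from 61.7 through 90.1 to 174 in old ones (log2 fold change -0.76, 95% interval -1.24 to -0.29, adjusted p = 0.481 in edgeR). ACLY ran from 446 through 812 to 1170 and from 552 through 1118 to 2420 (log2 fold change 0.62, 95% interval 0.14 to 1.10, adjusted p = 0.794 in edgeR). OGDH ran from 9.64 through 25.9 to 52.2 and from 25.0 through 36.3 to 76.4 (log2 fold change 0.76, 95% interval 0.07 to 1.44, adjusted p = 0.88 in edgeR). These 3 pairs of groups overlapped. The 6 ductal markers differed with age in β-cells, with a summed median of 185 CPM in young and 1708 in old monkeys, nearly all of it SPP1, which encodes osteopontin, while CFTR and SOX9 were at 0 in all β-cell profiles, and their part in these differences was not tested.

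**Figure D5:**
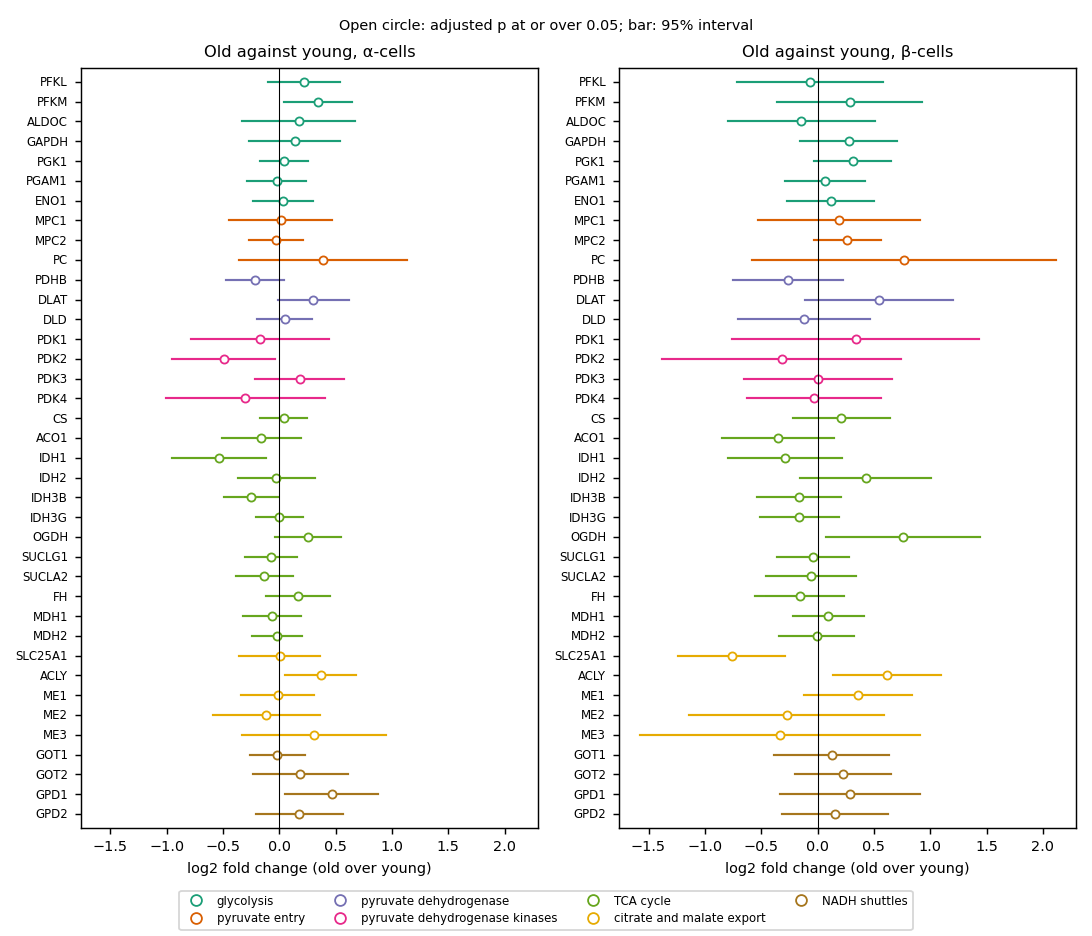
The log2 fold change of old over young monkeys for the 38 members in α-cells (left) and β-cells (right) on a shared axis. Bars are approximate 95% intervals computed from the edgeR test. All circles are open, since no member passed an adjusted p of 0.05, and the intervals are wider in β-cells, where SLC25A1 at -0.76 and PC at 0.77 lie farthest from 0.

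The intervals give the precision of each estimate for a single gene, without adjustment for the number of genes tested. They do not show how small a change could have passed the adjusted test. IDH1 in α-cells and SLC25A1 in β-cells had intervals that excluded 0, and neither passed. In α-cells the interval of PGK1 ran from -0.18 to 0.26, of MDH2 from -0.24 to 0.20 and of MPC2 from -0.27 to 0.21 on the log2 scale. That of PDK4, an abundant member with a coefficient of variation of 48.6% over monkeys, was wider, as given above, and that of PC, a rare one, ran from -0.58 to 2.11 in β-cells. In δ-cells 30 members could be tested and 0 passed (edgeR, 0 at an unadjusted p under 0.05, and 0 passed with 2 unadjusted in DESeq2), beside 0% of 6484 genes, with intervals such as -0.68 to 0.57 for GAPDH and -5.69 to 0.14 for OGDH. Age was not tested in PP-cells, where 2 young monkeys had enough cells.

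Whether age acted differently in the 2 main types was tested as an interaction over the 16 monkeys. No member passed in edgeR (0 of 38, beside 0% of 13322 genes, with 2 members at an unadjusted p under 0.05 in edgeR and 2 in DESeq2). SLC25A1, with close medians in young and old α-cells (165 and 166), had the largest difference of the age effect, β- minus α-cells, at -0.74 (95% interval -1.19 to -0.30, adjusted p = 0.638), followed in p by MPC2 at 0.28 (adjusted p = 0.774). The interaction of age and sex passed for 0 of 38 members in α-cells (edgeR, beside 0.00774% of 12916 genes, with 1 member unadjusted) and for 0 of 38 in β-cells (beside 0% of 10628 genes, with 0 members unadjusted), and DESeq2 called 0 members in either, with 1 and 0 unadjusted.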

How the data were processed

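Single islet cells were sequenced by a modified STRT protocol. Per the labels and the methods, the authors trimmed and aligned the reads to the cynomolgus genome (Macaca_fascicularis_5.0; the submitters' notes name CASAVA 1.8 and TopHat2 2.0.12), counted uniquely mapped reads per gene, collapsed identical UMIs, and deposited the UMI counts per gene and cell without normalization. Spike-in RNAs held 5.41% of UMIs and were left out. The members and gene lists were chosen with earlier results of these data known.

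Cells were typed by the highest hormone without clustering, and doublets were not called. Sums per monkey and type entered the quasi-likelihood test of edgeR 4.0.16 (R 4.3.3) after filterByExpr and TMM scaling, with Benjamini-Hochberg adjustment over all genes tested. Cell types were compared with the monkey as a block, and age with sex as covariate, over monkeys only. DESeq2 1.42.0, filters, scalings, thinned cells, cell subsets and leaving out each monkey were the alternatives. The tests of β- against α-cells, of δ-cells and of age in β-cells were also run on simulated counts with known changes. These counts held no differences in mean level between monkeys. The other tests were not run on them, and the outcome is not reported here. Descriptions used Python 3.11.15 with numpy 2.4.6 and pandas 2.3.3. Of genes that are no members, the named ones were the 3 largest rises and falls of the pathway lists in β- against α-cells, with hormones, markers and genes of the stress and hypoxia lists named beside the results they touch. A gene that this rule would name is not reported here. The depth was 21982838 to 35850398 UMIs per monkey, and intervals for counts of 0 cover counting error only. Gene strand settings are not given in the sources used here.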

Additional observations from a re-analysis of the deposited data

Results flagged for a closer look

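In 152 groups of 8 monkeys (38 members, α- and β-cells, young and old), 14 held a single monkey whose gap to its nearest neighbour exceeded 0.526 of the range of its group, and chance flags about 1 in 20 such groups. Young male 3 held 3 of them, all in α-cells: ENO1 at 390 CPM (the others 201 to 276), MDH1 at 447 (258 to 317) and GOT2 at 17.1 (49.3 to 62.9). Young female 2 held 3, all in β-cells: SLC25A1 at 344 (114 to 182), ACO1 at 98.1 (40.7 to 65.8) and ME3 at 40.2 (1.91 to 13.6). These rest on 11 cells, the fewest β-cells of any monkey, and on 214, 61 and 25 UMIs. In β-cells of old male 4, of which there were 22, PGAM1 stood at 167 (285 to 353) and IDH1 at 84.1 (24.3 to 44.6). Leaving out this monkey ended the IDH1 call between β- and α-cells. The part of the small cell numbers in these values was not tested. The remaining 6 were MPC2 at 274 in α-cells of young male 1 (346 to 392) and, in β-cells, ENO1 at 615 in old male 3 (401 to 495), PC at 7.27 in young female 1 (0 to 1.91), PDK2 at 21.3 in old female 1 (1.43 to 10.6), GOT2 at 107 in old female 3 (45.7 to 70.3) and GPD2 at 115 in young male 4 (24.3 to 59.8). No interaction of age with cell type or sex passed for a member.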

How the results depend on the processing

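Of 210 recomputed counts of members called, 205 stayed within 1.5 times the reported one. The 5 that did not included 19 for β- against α-cells with only those sums fitted and 6 for δ-cells without second-hormone cells. Another was 7 for δ-cells with at least 10 cells per monkey and type. The rest were the PP-cell counts of that setting and without cells above the median of the stress list, each from 1 PP-cell profile. The fit of α- and β-cell sums alone and the one without cells above the stress-list median were chosen after seeing the data. With each monkey left out in turn, 9 to 10 members passed between β- and α-cells, 10 to 12 in δ-cells and 7 to 9 in PP-cells, and 0 for age in α-, β- and δ-cells and for its interactions. Of 836 recomputed values of single called members, 717 stayed called, 118 lost the call in the same direction, and 1 turned direction. This was PGAM1 in PP-cells at 0.27 without cells above the median of the stress list, where old female 2 gave the only PP-cell profile. With all cells, PGAM1 in PP-cells stood at 250 CPM in that monkey and at 96.6 to 191 in the others. A part of the stress list in this was not tested. ACLY, ME1, ENO1, PDK4, PDK3, OGDH and MPC2 stayed called between β- and α-cells in 28 of 28 alternatives. Without the replicate block of the monkey, 9, 10 and 7 members passed for β-, δ- and PP-cells, beside 2871, 2623 and 1986 of 12899 genes. GAPDH in β-cells then stood at -0.33 (edgeR adjusted p = 0.0963). The monkey numbers, shared by young and old groups, showed no pairing: same-numbered monkeys deviated together with a correlation over 0.1 in 3 of 16 pairs (-0.149 to 0.179), 6 of 16 correlating best with their own number, and as a block they gave 0 calls for age in α- and in β-cells. The subset of cells with a single main hormone left too few PP-cells for a value.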

Other observations

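The members differed in how evenly the 16 monkeys expressed them. In α-cells PGK1 had a coefficient of variation of 8.45% over monkeys, CS of 10.8% and MPC2 of 10.8%, while PDK4 had one of 48.6%, with 5.9 times as much in the highest monkey as in the lowest. ACLY, at 27.5% in α-cells, was at 48.6% in β-cells. ME3 and PC, at 43.7% and 41.7% in α-cells, are among the rarest members, with 3036 and 1300 UMIs in all, whereas PDK4 rests on 160662.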
